A study of Homo sapiens with 4 samples.

Results

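The linker histones and the histone genes known to give polyadenylated transcripts were examined in single cells of 2 human cancer lines, with and without inhibitors of DNA methylation and histone deacetylation. The set described holds 9 genes, taken by name from the gene table of 43296 names: the linker genes H1FX and HIST1H1C, the core genes HIST1H2BK, HIST1H2BD, HIST1H2AC, HIST2H2BE and HIST1H4H of the histone clusters, and the replacement genes H2AFZ and H3F3B. All 9 were found, under 18 features of the 61838 listed. H1299 is a line from a non-small cell lung cancer and HCT116 a line from a colorectal cancer. Each was given the solvent DMSO or 2 compounds together, DAC (decitabine, an inhibitor of DNA methyltransferases) at 500 nM for 72 h and SB939 (an inhibitor of histone deacetylases) at 500 nM for 18 h, with the medium renewed every 24 h and the cells at passage 5 to 10. Below, control stands for DMSO and treated for DAC and SB939 together (DAC+SB). RNA was captured by its poly(A) tail and read from its 5′ end with 10x Genomics chemistry. Every group was 1 library, so no test was possible, and the intervals below are 95% intervals for counting error only, with no replicate check.

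Histones package DNA. A pair each of H2A, H2B, H3 and H4 forms the core that DNA wraps around, and a linker histone H1 binds where the DNA enters and leaves. Most histone genes lie in clusters and are read during S phase. Their messages end in a conserved stem-loop in place of a poly(A) tail, so poly(A) capture selects against them. Cluster genes were still counted here, as given below. Replacement histones such as H2A.Z and H3.3, and the linker H1x, are made outside S phase from ordinary polyadenylated messages. Some cluster genes do both: a longer, polyadenylated form of their message is known in cells that leave the cycle or differentiate.

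The 3′ ends are shown first, because the stem-loop is the mark of messages made without a tail. In the GENCODE v29 transcripts, the histone stem-loop, searched on the transcript strand as a stem that opens with GG and CTT and closes with AG and CC, with a fixed T in the loop and the other bases free, occurs in 136 of 19907 protein coding genes (0.683%), in 32 of the 71 genes of the HIST clusters (45.1%) and in 4 of the 7 members whose models reach past the stop codon. Those 4 sites are printed with 5 bases on each side and the stem-loop in capitals.
HIST1H2BD: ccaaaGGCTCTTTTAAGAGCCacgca
HIST1H2AC: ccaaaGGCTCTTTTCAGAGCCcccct
HIST2H2BE: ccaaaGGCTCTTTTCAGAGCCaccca
HIST1H4H: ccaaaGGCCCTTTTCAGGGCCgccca
The HIST2H2BE transcript goes on for 1729 bases after the stem-loop. HIST1H2AC has 3 transcripts, of which 2 hold the stem-loop and go on for 1114 and 1128 bases. HIST1H4H has 4, which end between 18 and 1655 bases after it. The 1128-base form of HIST1H2AC is annotated as nonsense-mediated decay and not as protein coding. So are the 1655-base form of HIST1H4H and a form of it with 630 bases after the stem-loop. HIST1H2BD has 1 transcript that ends 39 bases after the stem-loop and a longer one, of 789 bases, without it. The transcripts of H1FX, H2AFZ and H3F3B hold no match. The transcript models of HIST1H1C (642 bases) and HIST1H2BK (381 bases) have no bases before the start codon or after the stop codon, so their 3′ ends could not be searched. The same is true after the stop codon of 35 of the 71 cluster genes, and all 32 matches lie among the other 36.

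The 5′ ends of 4 cluster members follow, since 5′ reads fall just downstream of them: the 200 bases before the start, from RefSeq on GRCh38.p14. Capitals mark the H2B octamer (ATGCAAAT), the TATA box (its letters TATAAA), the CCAAT box (CCAAT itself) and the H1 box (AAACACA), each on either strand and none overlapping another.
HIST1H2BK, chr6:27146859-27147058, minus strand: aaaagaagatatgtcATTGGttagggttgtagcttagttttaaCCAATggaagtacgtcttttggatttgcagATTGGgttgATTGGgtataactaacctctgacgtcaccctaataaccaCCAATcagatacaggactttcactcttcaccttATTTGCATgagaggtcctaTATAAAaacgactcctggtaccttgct
HIST1H2BD, chr6:26157921-26158120, plus strand: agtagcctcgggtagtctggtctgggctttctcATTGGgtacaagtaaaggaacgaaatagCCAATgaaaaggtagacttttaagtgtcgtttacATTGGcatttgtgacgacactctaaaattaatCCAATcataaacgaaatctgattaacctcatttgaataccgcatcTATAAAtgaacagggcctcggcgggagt
HIST2H2BE, chr1:149886683-149886882, minus strand: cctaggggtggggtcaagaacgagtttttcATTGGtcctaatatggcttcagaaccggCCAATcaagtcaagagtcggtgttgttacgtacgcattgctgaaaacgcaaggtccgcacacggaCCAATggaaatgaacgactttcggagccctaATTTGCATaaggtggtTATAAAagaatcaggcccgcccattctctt
HIST1H1C, chr6:26056471-26056670, minus strand: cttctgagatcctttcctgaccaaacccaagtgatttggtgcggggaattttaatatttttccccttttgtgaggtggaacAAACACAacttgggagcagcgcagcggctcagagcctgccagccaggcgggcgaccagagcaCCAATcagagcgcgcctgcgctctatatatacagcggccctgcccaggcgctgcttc
All 9 members had an entry in the promoter table. HIST1H2BK and HIST1H2BD had 2 each, of which only the first listed was used. Over 250 bases before the start, the octamer was found in 4 of the 9 (HIST1H2BK, HIST1H2AC, HIST2H2BE and H3F3B) and in 1.63% of all 35116 promoters in the table. TATAAA was found in 7 of 9 against 10.7% of all, CCAAT in 7 of 9 against 32.0%, and AAACACA in 1 of 9, HIST1H1C, against 4.82%. In HIST1H2BK and HIST2H2BE the octamer lies at the same place, from -46 to -39 relative to the start.

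The libraries held 3578 to 4327 cells each, 15289 in all, and 38927267 to 64524196 gene and transposable element (TE) counts. Treated HCT116 was the shallow one, with a median of 8449 counts per cell against 15785 to 17370 in the others. It also had the highest median mitochondrial share, 18.6%, against 8.33% to 15.8%, and 1086 of its cells were above 25%. Between 18 and 30 cell barcodes were shared by any pair of libraries. TE counts were 0.199% and 0.319% of the total in H1299 and HCT116 with DMSO, and 3.09% and 5.56% with DAC+SB. The summed markers were higher in the line they were listed for. The 10 markers of H1299 summed to 3394 and 1321 CPM in H1299 and to 191 and 358 in HCT116, DMSO first, and 10 markers of HCT116 to 0.480 and 15.3 against 150.3 and 86.4. VIM was at 2282 and 1151 CPM in H1299 and at 47.0 and 265 in HCT116, and EPCAM at 0.0155 and 4.47 against 80.7 and 45.2. EPCAM thus made up most of the HCT116 marker sum in HCT116, and VIM most of the H1299 marker sum in H1299. Of the 10 HCT116 markers, 5 were below 1 CPM in control HCT116, 1 of them at 0. All levels below are in CPM, counts per 1000000 gene plus TE counts of a library, and are compared between libraries for the same gene, not between genes.

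In both lines the linker genes H1FX and HIST1H1C and the core genes HIST1H2BK, HIST1H2BD and HIST1H4H were at least 1.72-fold higher in the DAC+SB library. Of the replacement genes, H2AFZ was lower and H3F3B higher by less than 2-fold. In each line 4 of the 9 members were at least 2-fold higher. The same held for 18.3% of the 14610 genes with at least 100 counts in H1299 and 16.2% of the 13539 in HCT116. No member was 2-fold lower, against 7.34% and 20.0% of all genes. At 4-fold, 1 member was higher in H1299 (HIST1H2BD) and 2 in HCT116 (HIST1H2BK and HIST1H4H), against 11.0% and 9.63%. The median log2 ratio of DAC+SB over DMSO was 0.78 over the members in H1299 and -0.07 over all genes tested. In HCT116 it was 1.00 against -0.23. The members called higher in both lines were HIST1H1C, HIST1H2BD and HIST1H4H. H1FX completed the list in H1299 and HIST1H2BK in HCT116. Without cells above 25% mitochondrial counts, H1299 kept its 4 calls. In HCT116 3 of the 4 were kept, HIST1H1C passed below 2-fold (log2 0.96) and H1FX above it (1.02).

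**Figure D1:**
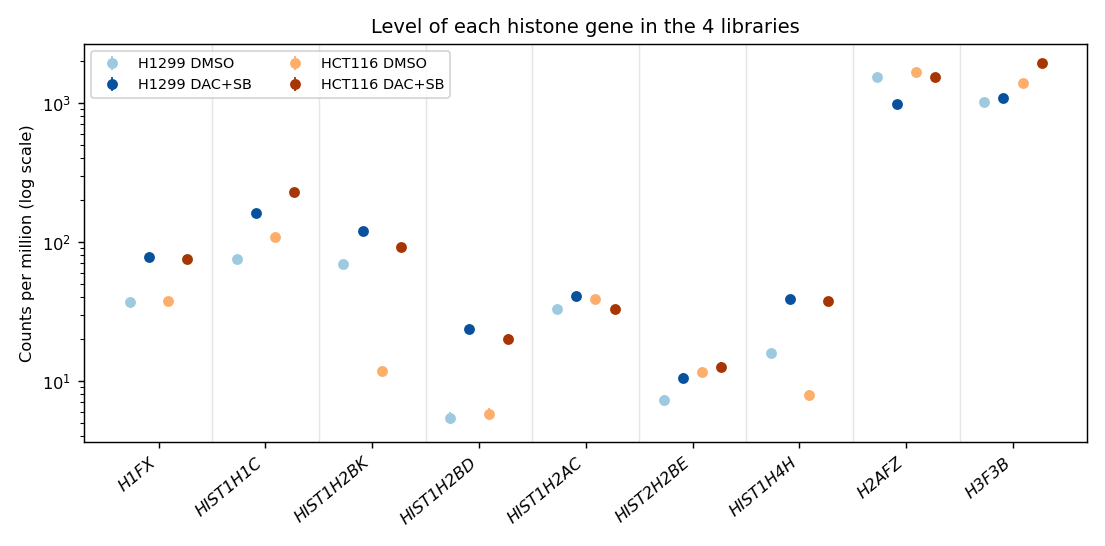
Level of each histone gene in CPM (log axis) in the 4 libraries, 1 point per library with its exact Poisson 95% interval. HIST1H2BD stands at 5.42 and 23.7 in H1299 and at 5.81 and 20.2 in HCT116, and HIST1H2BK is lowest in control HCT116, at 11.9.

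H1FX encodes H1x, a linker histone made through the cell cycle. It lies on chromosome 3 (GRCh38, as for all members, 129314771 to 129316277, minus strand), in 1 exon that overlaps H1FX-AS1 on the other strand. The sources used here do not give whether the counting used strand, and H1FX-AS1 was not analysed here. Levels were 37.2 and 77.4 CPM in H1299 without and with DAC+SB, and 37.5 and 74.9 in HCT116. The lines did not differ beyond counting error in either condition. The treated library was 2.08-fold higher in H1299 and 1.995-fold in HCT116, so H1FX missed the 2-fold line in HCT116 by less than its interval (1.89 to 2.11) and passed it when TE counts were left out of the denominator. The difference in log2 ratio between the lines was 0.06, with an interval from -0.04 to 0.17.

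HIST1H1C encodes H1.2, a linker histone of the large cluster on chromosome 6 (26055787 to 26056428, minus strand) that is read mostly in S phase. Its level was 75.5 CPM in control H1299, 162 in treated H1299, 109 in control HCT116 and 229 in treated HCT116. The treated library was 2.14-fold higher in H1299 and 2.09-fold in HCT116. The log2 ratios differed by 0.03 between the lines (-0.03 to 0.10). HIST1H1E, the H1.4 gene of the same cluster, differed from it and was at 179 and 100 CPM in H1299 and at 284 and 253 in HCT116, DMSO first.

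HIST1H2BK encodes an H2B and had the largest gap between the lines in its ratio. It lies on chromosome 6 (27146418 to 27146798, minus strand). It stood at 69.3 CPM in control H1299, 119 in treated H1299, 11.9 in control HCT116 and 91.7 in treated HCT116. HCT116 without treatment stood apart below the other libraries. The treated library was 7.73-fold higher in HCT116 (log2 2.95, 2.84 to 3.07) and 1.72-fold in H1299 (0.78, 0.73 to 0.84). With DMSO the gene was 5.84-fold higher in H1299 than in HCT116, and with DAC+SB 1.30-fold. At least 2-fold higher levels in H1299 were seen for 20.5% of genes with DMSO and 25.4% with DAC+SB. No member was 2-fold lower in H1299 than in HCT116, against 15.2% and 12.1% of genes. HIST1H2BK may share reads with other genes, which was not tested. Of the 50-base windows in its first 200 annotated bases, which are coding, 76.2% also occur in HIST1H2BE, HIST1H2BN, HIST2H2BF or H2BFS. Its RefSeq start lies upstream of this transcript model, so the bases just after that start were not searched. The figure is 25.2% for HIST2H2BE, at most 3.60% for H2AFZ and H3F3B, and 0 for the rest. These shares cover unlike parts, since the models of HIST1H1C and HIST1H2BK begin at the start codon and the others before it.

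HIST1H2BD and HIST1H4H, an H2B and an H4 gene of the chromosome 6 cluster (26158146 to 26171349, plus strand, and 26277609 to 26285638, minus strand), were higher in both treated libraries. HIST1H2BD overlaps AL353759.1 on the other strand and LARP1P1 on the same strand, neither of which was analysed here. It was at 5.42 CPM in control H1299, 23.7 in treated H1299, 5.81 in control HCT116 and 20.2 in treated HCT116. The DMSO libraries of the lines did not differ beyond counting error, and the treated libraries were 4.37-fold and 3.47-fold higher. HIST1H4H was at 15.8 CPM in control H1299, 38.7 in treated H1299, 7.90 in control HCT116 and 37.7 in treated HCT116. Here the treated libraries overlapped in their intervals and the control libraries were apart, with ratios of 2.46-fold in H1299 and 4.77-fold in HCT116 and a difference in log2 ratio of -0.96 (-1.14 to -0.77).

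HIST1H2AC, an H2A gene of chromosome 6 (26124145 to 26139116, plus strand), and HIST2H2BE, an H2B gene of chromosome 1 (149884459 to 149886652, minus strand), had ratios below 2-fold in both lines. HIST1H2AC was at 32.9 and 40.9 CPM in H1299 and at 38.5 and 33.1 in HCT116, DMSO first. In their intervals control H1299 overlapped treated HCT116, and treated H1299 overlapped control HCT116. The log2 ratios had opposite signs, 0.31 in H1299 (0.23 to 0.40) and -0.22 in HCT116 (-0.32 to -0.12). HIST2H2BE was at 7.28 and 10.5 CPM in H1299 and at 11.6 and 12.6 in HCT116. Control H1299 lay below the other libraries, whose neighbouring intervals overlapped. Its log2 ratio was 0.53 in H1299 (0.35 to 0.70) and 0.12 in HCT116, where the interval from -0.05 to 0.29 includes 0.

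H2AFZ encodes H2A.Z, the variant placed at promoters and enhancers, and lies on chromosome 4 (99948086 to 99950388, minus strand). It overlaps AC097460.1 on the other strand, which was not analysed here. H2AFZ was at 1524 and 985 CPM in H1299 and at 1654 and 1537 in HCT116, DMSO first. Treated H1299 stood below the others, and control H1299 overlapped treated HCT116. The log2 ratios were -0.63 and -0.11. H3F3B, on chromosome 17 (75776434 to 75785893, minus strand), is one of the genes for H3.3, the variant laid down independently of replication. It was at 1017 and 1092 CPM in H1299 and at 1392 and 1950 in HCT116, with log2 ratios of 0.10 and 0.49. UNK, which overlaps H3F3B on the other strand, was lower in the treated libraries (log2 -0.77 and -1.62), and without stated strand its reads cannot be told apart from those of H3F3B in the overlap. All 4 intervals of H3F3B were separate, with treated HCT116 the highest.

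**Figure D2:**
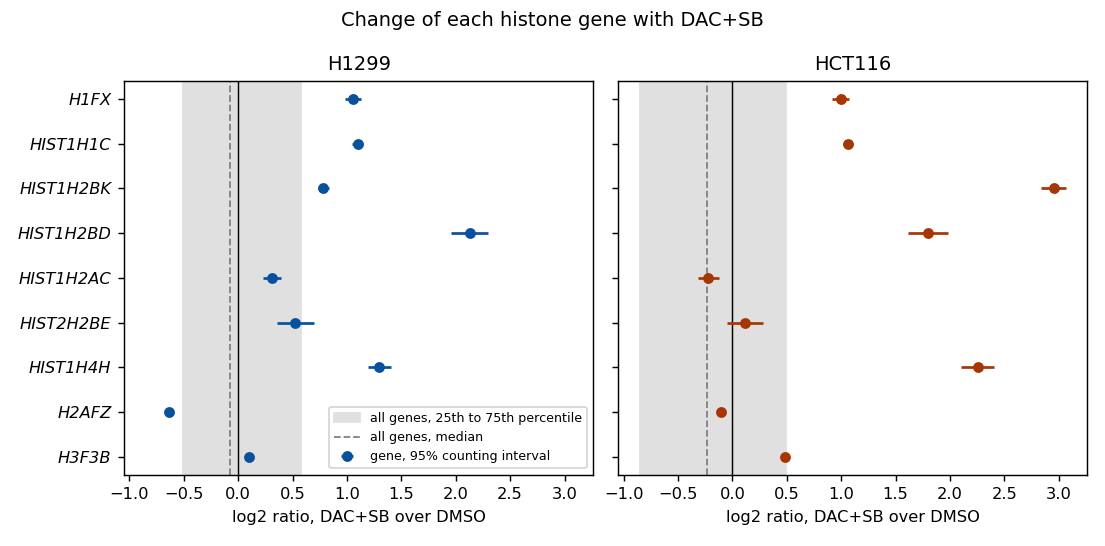
Log2 ratio of DAC+SB over DMSO for each histone gene in H1299 (left) and HCT116 (right), with the 95% counting interval. Grey bands span the 25th to 75th percentile of all genes with at least 100 counts and the dashed line is their median (-0.07 and -0.23). HIST1H2BD lies furthest right in H1299 and HIST1H2BK in HCT116.

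The features of a gene can differ from its total. The gene table splits 8 of the 9 members into a feature without a number and numbered features, while H1FX has only the first. The sources used here do not say what the numbers stand for. Numbered features are listed only from 10 counts upward. In HIST2H2BE the feature without a number held 21.7% of the counts in control H1299 and 72.2% in treated H1299, and 9.20% and 45.2% in HCT116. Counted alone, that feature was higher with DAC+SB (102 counts against 473 in H1299, 67 against 222 in HCT116, log2 2.26 and 2.41). The numbered feature was lower (368 against 182, and 661 against 269, log2 -0.97 and -0.61). The totals of HIST2H2BE were thus the sum of features with opposite ratios.

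HIST1H2AC had the same arrangement. Its feature without a number held 28.3% of H1299 counts with DMSO and 46.7% with DAC+SB, and 10.3% and 28.1% of HCT116 counts. That feature had log2 ratios of 1.03 and 1.23, and the numbered one -0.11 and -0.54. In HIST1H2BD the share went from 62.6% to 88.5% and from 37.9% to 84.2%. Its first numbered feature was higher with DAC+SB in H1299 (log2 0.42, 0.09 to 0.76) and within counting error in HCT116 (0.14, -0.20 to 0.48), and a second was listed only in control HCT116, with 45 counts. HIST1H4H (30.8% to 44.0%, and 14.1% to 29.7%) and HIST1H1C (17.9% to 31.3%, and 10.4% to 17.3%) had larger shares outside the numbered feature too, but here both features were higher with DAC+SB.

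The other members did not share this direction. H3F3B went from 30.7% to 26.2% and from 22.8% to 17.4%, and H2AFZ from 13.8% to 12.3% and from 14.4% to 8.58%. HIST1H2BK stayed close, at 32.4% and 29.9% in H1299 and 19.1% and 19.9% in HCT116. Over all genes with numbered features and at least 100 counts in both libraries, 8189 in H1299 and 8861 in HCT116, the numbered share was higher with DAC+SB by a median of 1.53 and 4.18 percentage points. It was lower by at least 20 points in 1.83% and 1.56% of them. HIST2H2BE and HIST1H2BD are among these in both lines.

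**Figure D3:**
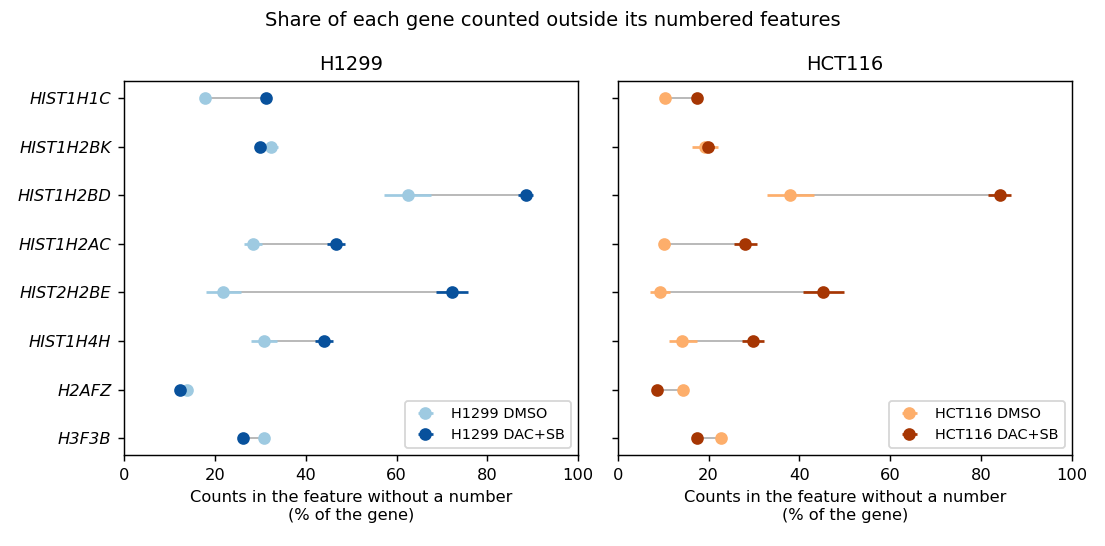
Percent of each gene's counts in its feature without a number in H1299 (left) and HCT116 (right), pale points for DMSO and dark points for DAC+SB, with exact Clopper-Pearson 95% intervals. The dark point lies to the right of the pale one in HIST1H1C, HIST1H2BD, HIST1H2AC, HIST2H2BE and HIST1H4H in both lines, and to the left in H2AFZ and H3F3B.

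At the level of single cells, each cell was thinned to 3300 counts so that depth did not set the shares, which left out 402 shallow treated HCT116 cells and no others. H1FX was counted in 10.9% and 22.9% of thinned H1299 cells, DMSO first, and in 11.1% and 20.5% of HCT116 cells (41.9%, 62.1%, 40.4% and 40.1% before thinning). HIST1H1C was counted in 15.7% and 30.2% of thinned H1299 cells and in 20.3% and 39.7% of HCT116 cells (42.5%, 65.0%, 42.1% and 60.0% before thinning). HIST1H2BK was counted in 19.6% and 29.0%, and in 3.66% and 21.4% (56.9%, 70.7%, 12.5% and 39.4% before thinning). For these genes the order of the thinned shares followed that of the levels within each line. HIST1H2AC in HCT116 did not follow it, with 8.78% and 9.30% of cells against a lower treated level, and no order is read from it.

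Taken as groups in thinned cells, a count of H1FX or HIST1H1C was found in 24.9% of control H1299 cells and 46.1% of treated H1299 cells. In HCT116 it was found in 29.1% and 51.4%. Counts of both were found in 1.7% and 7.0% of H1299 cells, and in 2.30% and 8.76% of HCT116 cells. A count of any of the 5 core cluster members was found in 31.0% and 47.6% of H1299 cells and in 16.2% and 40.6% of HCT116 cells. Counts of both H2AFZ and H3F3B were found in 87.5% and 78.0%, and in 96.1% and 94.2%. No cell type that lacks these genes was present, so the share that free RNA gives was not measured.

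**Figure D4:**
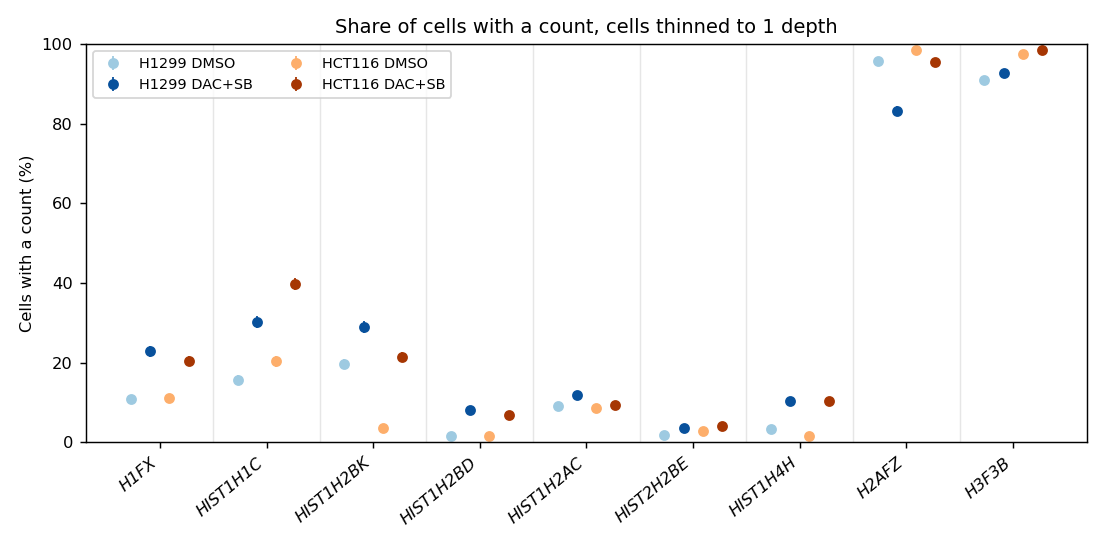
Percent of cells with a count of each histone gene after every cell was thinned to 3300 counts, 1 point per library with its exact Clopper-Pearson 95% interval. HIST1H2BK stands at 3.66% in control HCT116 and 21.4% in treated HCT116, while H2AFZ and H3F3B are found in at least 83.3% of cells in each.

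Cells were next ordered within a library by their summed thinned counts of 25 S phase genes, 25 G2/M genes or TE, and the level in the top 25% of cells was set against that in the bottom 25%, called the high and low cells. Cells are not replicates, so these are descriptions of 1 library each. The median over all genes in the S phase order was 0.08 and 0.18 in H1299 and 0.06 and 0.20 in HCT116, DMSO first. In DMSO cells HIST1H1C went with S phase: 40.6 CPM in the low and 112 in the high cells of H1299, and 56.1 and 176 in those of HCT116 (log2 1.46 and 1.65). With DAC+SB the same split gave 154 and 170 CPM in H1299 and 182 and 252 in HCT116 (0.14 and 0.47). Low and high cells held a median of 2 and 10 S phase counts in each DMSO library. In treated H1299 they held 0 and 6, and in treated HCT116 0 and 5. Cells with equal counts were put in a random order. The control and treated contrasts thus cover unlike ranges of S phase counts. In H1299 treated cells low in S phase counts were above control cells high in them (log2 0.46, 0.37 to 0.55, and 0.21, 0.06 to 0.35, with 10% of cells). In HCT116 that difference was within counting error (0.05, -0.04 to 0.14), and with the top and bottom 10% of cells it turned to -0.24 (-0.38 to -0.10). HIST1H4C, a cluster H4 gene outside the set, kept its contrast (1.66 and 2.32 in H1299, 1.13 and 1.34 in HCT116, DMSO first). In control HCT116 the S phase contrast was also seen in HIST1H2BD (1.52), HIST1H2AC (1.63), HIST2H2BE (1.31) and HIST1H4H (1.50), and with DAC+SB these were between -0.26 and 0.46. HIST1H2BK differed from them, with 0.48 (0.18 to 0.79) in control and 0.94 (0.79 to 1.09) in treated HCT116. With 10% of cells its intervals overlapped (0.92, 0.47 to 1.39, and 1.18, 0.93 to 1.43). In control H1299 the contrast was 0.72 for HIST1H2BD and 0.94 for HIST2H2BE, and in treated H1299 it had the opposite sign (-0.90, -1.12 to -0.68, and -0.50, -0.81 to -0.18). The intervals of HIST1H2AC (0.11) and HIST1H2BK (0.00) in control H1299 include 0. HIST1H4H there depended on the share of cells taken, with 0.16 (-0.10 to 0.43) for 25% and 1.39 (0.89 to 1.92) for 10%. With 10% of cells HIST1H1C and HIST1H2BD in control HCT116 had larger contrasts (2.32 and 2.45). H2AFZ and H3F3B, outside the clusters, went the other way and had larger S phase contrasts with DAC+SB. H2AFZ had 0.15 and 1.13 in H1299 and 0.13 and 0.33 in HCT116, and H3F3B -0.07 and 0.46 and -0.10 and 0.23. With 10% of cells control H1299 was at 0.46 for H2AFZ and 0.16 for H3F3B, below treated H1299 at 1.29 and 0.47. H1FX had 0.54 (0.36 to 0.71) and 0.76 (0.64 to 0.88) in H1299, with overlapping intervals, and -0.11 and 0.44 in HCT116. With 10% of cells its HCT116 intervals overlapped too (0.11, -0.18 to 0.40, and 0.32, 0.07 to 0.56).

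Along G2/M the members parted. The median over all genes was 0.10 and 0.18 in H1299 and 0.13 and 0.20 in HCT116, DMSO first. H2AFZ was above it in G2/M-high cells of the 4 libraries (0.57 and 1.75 in H1299, 0.23 and 0.59 in HCT116), and so was H3F3B (0.98, 0.78, 0.42 and 0.38). With 10% of cells H2AFZ in control H1299 was at 1.21. H1FX was above it in 3 (1.16, 0.81 and 0.78) and level with it in treated HCT116 (0.20). HIST1H2BD was lower in H1299 (-1.74 and -1.35, and -3.30 in control cells with 10% taken) and in treated HCT116 (-0.38). In control HCT116 it was within counting error (-0.18). HIST1H2AC was lower in control H1299 (-1.25), treated H1299 (-0.38) and control HCT116 (-0.67), and so was HIST1H1C (-0.94, -0.26 and -0.43). Both were within counting error in treated HCT116 (-0.05 and -0.01). HIST1H4H was lower in control H1299 (-0.999), but within counting error there with 10% of cells (-0.44, -1.15 to 0.27). With 25% it was within counting error in the other libraries. HIST1H2BK was lower in the control libraries (-0.49 and -0.73) and higher in treated HCT116 (0.61). HIST2H2BE was lower in treated H1299 (-1.23) and control HCT116 (-1.32). In control H1299 it was -1.09 with 25% of cells and -0.68 (-1.61 to 0.23) with 10%, and in treated HCT116 -0.41 (-0.83 to 0.01) and -1.67 (-2.59 to -0.81). In the treated libraries the G2/M-low cells also held little HIST1H4C, which was higher in G2/M-high cells there (2.60 and 1.37, and 1.89 in H1299 with 10% of cells). With DMSO it was lower in them in HCT116 (-0.54), while in H1299 the sign turned with the share of cells taken (-0.49 with 25%, 0.14 with 10%). The high cells of the S phase and G2/M orders were deeper in every library, at the widest with a median of 17583 counts against 14477, for G2/M in treated H1299.

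Ordered by TE counts, cluster members differed between treated cells. In treated H1299, HIST1H1C was at 73.4 CPM in TE-low cells and 304 in TE-high cells (log2 2.05), beside 75.5 in the whole DMSO library. In treated HCT116 it was at 117 and 377 (1.69), beside 109. HIST1H4H was at 15.9 and 61.7 CPM in treated H1299 (1.95) and at 22.8 and 56.1 in treated HCT116 (1.30). HIST2H2BE had log2 differences of 1.74 and 1.58 and HIST1H2BD of 1.72 and 0.84. The other 76 cluster genes summed were higher in TE-high treated cells too (0.64 in H1299 and 1.26 in HCT116), and HIST1H4C was lower (-0.30 and -0.10). With 10% of cells HIST1H1C was at 2.76 and 2.55, and HIST2H2BE in treated HCT116 at 2.50. In DMSO cells, where TE-low and TE-high cells held a median of 3 and 11 TE counts in H1299 and 5 and 16 in HCT116, HIST1H1C differed by 0.18 and 0.61. HIST1H4H differed by -0.70 in control H1299 (-1.55 with 10% of cells), and in control HCT116 its interval includes 0 (-0.24, -0.57 to 0.10).

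H1FX differed by at most 0.05 in either direction in 3 libraries and by 0.30 in treated HCT116, H3F3B by at most 0.12, and H2AFZ was lower in treated H1299 (-0.33). The median over all genes was -0.19 in treated H1299 and -0.29 in treated HCT116. In treated HCT116 TE-low and TE-high cells differed in median depth (10211 and 7972 counts) and mitochondrial share (15.8% and 20.0%), and in treated H1299 hardly (16022 and 15951 counts, 8.39% and 9.09%). The part of depth and RNA quality in the HCT116 contrast was not tested.

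**Figure D5:**
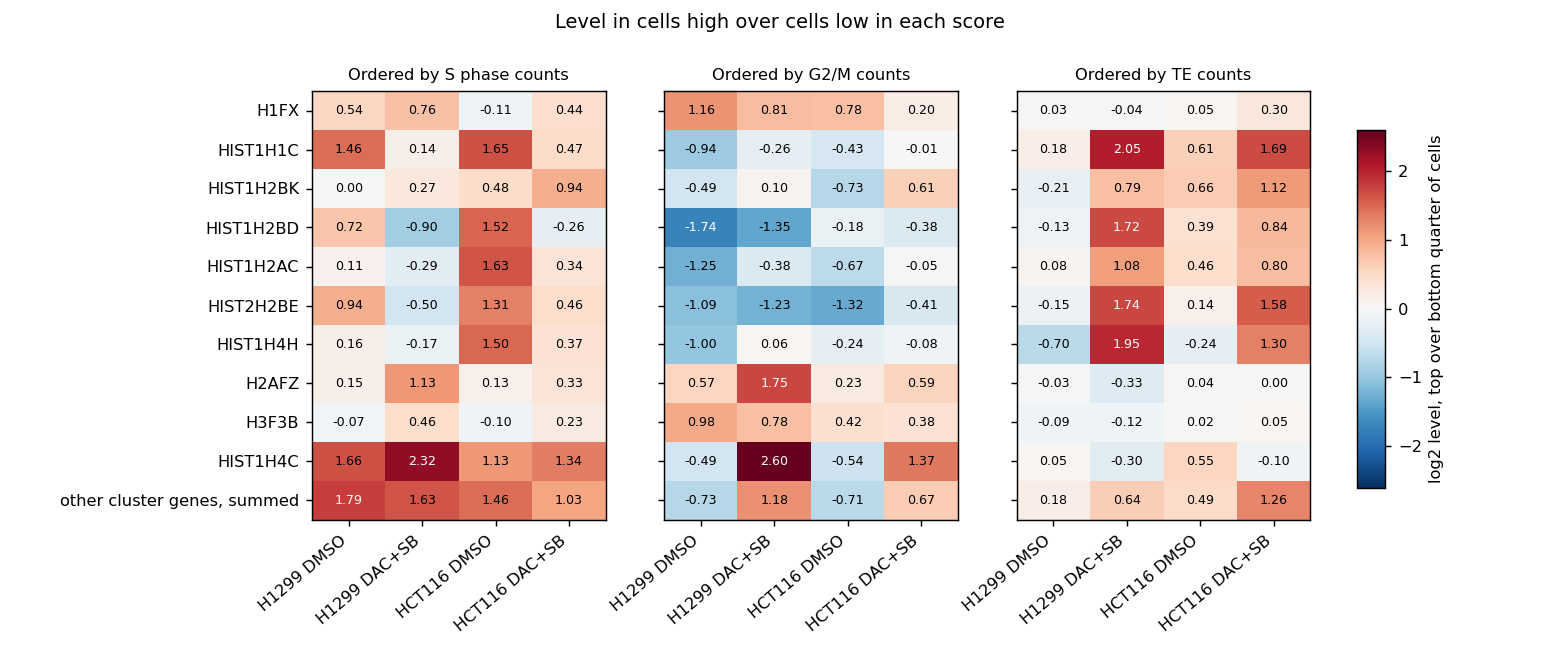
Log2 difference in level between the top and bottom 25% of cells ordered by S phase, G2/M or TE counts, for each histone gene, HIST1H4C and the sum of the other 76 cluster genes (rows) in each library (columns), red for higher in the top 25%. In the TE panel HIST1H1C reads 0.18 and 2.05 in H1299 and 0.61 and 1.69 in HCT116, DMSO first.

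The other cluster histone genes code for the bulk of S phase histone, and 1 of them, HIST1H4C, carried most of the change in their sum. With at least 100 counts, 46 of 77 were measured in H1299, of which 13 were at least 2-fold higher and 12 lower, and 43 in HCT116, of which 16 were higher and 15 lower. Over all genes 18.3% were higher and 7.34% lower in H1299, and 16.2% and 20.0% in HCT116. Without genes that had a numbered feature listed in 1 library only, 4 of 36 were higher and 12 lower in H1299, and 4 of 29 and 14 in HCT116. The median log2 ratios were then -0.85 and -0.92. This filter depends on the outcome, as it took out mostly genes that were higher with DAC+SB. The shares of all genes were not filtered in this way. No direction is therefore read from the filtered counts, medians and sums. The sums were 2550 CPM for H1299 with DMSO and 1612 with DAC+SB, and 3306 and 1638 for HCT116. HIST1H4C alone was at 1449 and 660 CPM in H1299 and at 2083 and 601 in HCT116. The other 76 genes summed to 1101 and 952 CPM in H1299 and to 1223 and 1037 in HCT116, which is 1.16-fold and 1.18-fold lower with DAC+SB. Without the genes that had a numbered feature listed in 1 library only, the sums were 1097 and 765 CPM over 60 genes in H1299 and 1208 and 809 over 51 in HCT116, or 1.43-fold and 1.49-fold lower. HIST2H2AB, for example, was at 24.2 and 4.71 CPM in H1299 and at 64.2 and 12.9 in HCT116. Of the 25 S phase genes, 14 were at least 2-fold lower in H1299 and 12 in HCT116, and of the 25 G2/M genes 1 and 13, with none of either list 2-fold higher, beside the same shares of all genes. The part of fewer cycling cells in the cluster genes was not tested.

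Of the 3 cluster genes that start close to a member on the other strand, 1 had the opposite sign of ratio in both lines and 1 in H1299 beyond counting error. HIST1H2AH, 331 bases from HIST1H2BK, had log2 ratios of -1.40 in H1299 and -1.26 in HCT116, where HIST1H2BK had 0.78 and 2.95. HIST2H2AC, 323 bases from HIST2H2BE, had -1.92 and -1.46, where HIST2H2BE had 0.53 and 0.12, the latter with an interval that includes 0. HIST1H2BC, 219 bases from HIST1H2AC, had 0.03 (-0.05 to 0.10) and -0.41 (-0.49 to -0.33), below its partner's 0.31 (0.23 to 0.40) and -0.22 (-0.32 to -0.12).

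Cluster genes outside the set with at most 10 counts with DMSO and at least 100 with DAC+SB numbered 7 in H1299 and 12 in HCT116. The share of all genes that meet this rule was not computed, so these counts are not read as a trait of the clusters. Genes at least 4-fold higher made up 11.0% of all tested genes in H1299 and 9.63% in HCT116. They include HIST1H2AA and HIST1H2BA, the testis forms of H2A and H2B, with 0 and 1311 and 0 and 1189 counts in H1299, and 0 and 525 and 4 and 495 in HCT116. HIST1H1A, the H1.1 gene, had 0 and 923 counts in H1299 and 1 and 1043 in HCT116. Of the 12 in HCT116, 6 had at least 100 counts in control H1299, among them HIST1H1B, the H1.5 gene, with 0 and 521 counts in HCT116 and 6838 and 2510 in H1299, and HIST1H2AI, with 2 and 890 and 3105 and 1724. HIST1H1T, the testis linker histone, had 2 and 832 counts in H1299 and 57 and 286 in HCT116. Each of the 7 and of the 12 has a numbered feature listed in 1 library of the line only, so the low value may lack counts that were not listed. No numbered feature was listed below 10 counts, but the sources used here do not say what numbered features are. How many counts are missing is therefore not known, and no fold is given.

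Of 9 other replacement histone genes with at least 100 counts in H1299, 3 were at least 2-fold higher with DAC+SB and 1 lower, beside 18.3% and 7.34% of all genes. Of 8 in HCT116, 2 were higher and 2 lower, beside 16.2% and 20.0% of all genes. Without genes that had a numbered feature listed in 1 library only, 2 of 8 were higher and 1 lower in H1299, and 0 of 6 and 2 in HCT116. As above, this filter depends on the outcome and was not applied to the shares of all genes. H2AFJ, an H2A variant gene, was at 163 and 327 CPM in H1299. In HCT116 it had 33 and 1004 counts, with a numbered feature listed in 1 library only, so no fold is given. H2AFY2, which encodes the macroH2A2 variant, was at 7.61 and 3.62 CPM in H1299 and at 42.1 and 2.80 in HCT116. Of 16 genes for histone gene transcription and message ends, 0 were higher and 1 lower in H1299, beside 18.3% and 7.34% of all genes. In HCT116 1 was higher and 4 lower, beside 16.2% and 20.0%. SLBP, the protein that binds the stem-loop, was at 52.3 and 65.5 CPM in H1299 and at 102 and 113 in HCT116. Of 27 histone chaperone genes, none passed 2-fold in H1299, beside 18.3% of all genes higher and 7.34% lower. In HCT116 0 were higher and 8 lower, beside 16.2% and 20.0% of all genes, and SET was at 531 and 146 CPM. HIRA, of the complex that deposits H3.3, was at 12.4 and 6.23 CPM in H1299 and at 6.37 and 5.50 in HCT116.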

How the data were processed

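The authors deposited whole-number counts per feature and cell for genes and for TE. The submitters' processing notes name CASAVA, STAR and the builds GRCh38 and hg38. The sources used here give neither which steps these served, nor the annotation, the cell filter or whether the counts are of molecules. Each cell name carries its library, which gave the 4 groups. For each gene, counts were summed over all features whose name before the first bar equals the symbol. Names that join several genes (2419 of 43296) were left out. Levels are per 1000000 gene and TE counts. Ratios carry exact conditional binomial intervals, levels exact Poisson and shares exact Clopper-Pearson intervals, all 95% and for counting error only, and differences between lines a normal approximation. Genes needed 100 counts in the higher library. The lowest listed numbered feature had 10 counts in any library. Cells were thinned to 3300 counts, and no doublet caller was run. The computation was tested on simulated data. Positions and transcripts come from GENCODE v29 (GRCh38), promoters from RefSeq, matched by symbol. Alternatives changed the denominator, the features, the cells, the fold and the depth. Members and lists were chosen with earlier results of these data known. The 9 members are named, and of each other list at most the 3 highest and 3 lowest in each line. A gene of the planned set and a marker are not reported here, and every count, median and figure was computed without them. HIST1H1E, HIST1H4C, HIST1H2AH, HIST1H2BC, HIST1H1B, UNK and the marker genes were named beside them as references. Python 3.11.15, numpy 2.4.6, scipy 1.17.1 and pandas 2.3.3 were used.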

Additional observations from a re-analysis of the deposited data

Results flagged for a closer look

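HIST1H2AC was the member whose ratio of DAC+SB over DMSO pointed in opposite directions in the lines beyond counting error, with a log2 ratio of 0.31 in H1299 and -0.22 in HCT116. The opposition was in the total only: the feature without a number had log2 ratios of 1.03 and 1.23, and the numbered feature -0.11 and -0.54. Each group was 1 library, so the difference between the lines was not tested.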

How the results depend on the processing

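No paired analysis was possible because each group was 1 library and no test was made. With a threshold of 4-fold in place of 2-fold, the members higher with DAC+SB numbered 1 in H1299 and 2 in HCT116. Counting only features without a number, an alternative chosen after seeing the data, gave median member log2 ratios of 1.06 in H1299 and 1.80 in HCT116 and 6 higher members in each line. No median or share of all genes was set beside these values, so they are not read against a background. The alternative turned the sign of 2 of the 18 member ratios, HIST1H2AC in HCT116 (-0.22 to 1.23) and H3F3B in H1299 (0.10 to -0.13). It moved HIST2H2BE in HCT116 from 0.12 to 2.41. The HCT116 count was 5, with H1FX, when TE counts were left out of the denominator, when mitochondrial and ribosomal protein genes were, or without the 5% of cells with most counts. Adding joined names, the mean over cells and leaving out numbered features listed in 1 library changed no sign and no member call. Leaving out cells above 25% mitochondrial counts changed no sign, but in HCT116 HIST1H1C lost its call (1.07 to 0.96) and H1FX gained one (1.00 to 1.02), while HIST1H2BK moved from 2.95 to 3.25. With the top and bottom 10% of cells in place of 25%, 13 of 108 member contrasts changed sign, and so did HIST1H4C along G2/M in control H1299 (-0.49 to 0.14). Changes in the member contrasts ranged from -1.56 to 1.23 in log2. The largest was that of HIST1H2BD along G2/M in control H1299 (-1.74 to -3.30). The shares of cells depend on depth in all 4 libraries: HIST1H2BK in treated H1299 was 29.0% thinned and 70.7% not thinned.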
